A study of Mus musculus with 12 samples.

Results

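The S100 and annexin genes with Crip1 are 10 genes, S100a4, S100a6, S100a10, S100a11, Anxa1, Anxa2, Anxa4, Anxa5, Anxa6 and Crip1, taken by name from the gene tables of the series. They are 10 of 20842 genes that could be joined over all libraries, and all 10 were among the 11693 genes tested. Crip1 and Anxa1 stood higher in Treg of the thrombus and of the vein wall than in splenic Treg in each set of files, while the S100 genes other than S100a4, and the annexins other than Anxa1 and Anxa2, had fold changes near or under their standard error. With tissue as the single factor none of the 10 passed the test. With file set as covariate Crip1 and Anxa1 passed in thrombus over spleen, where 0.453% of all genes did. Crip1 also passed in vein wall over spleen, where 0.411% did. On leaving out a sample, the thrombus calls were kept in 8 of 10 fits for Crip1 and 4 of 10 for Anxa1. The vein wall call of Crip1 was kept in 4 of 10.

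S100 proteins are small calcium-binding proteins that change shape when calcium enters the cell and then bind partner proteins, among them annexins and parts of the cytoskeleton. Annexins bind acidic phospholipids of membranes in the presence of calcium, and several of them pair with an S100 protein, as annexin A2 does with S100A10 and annexin A1 with S100A11. Crip1 encodes a small zinc-binding protein with a LIM domain, known from intestine and from immune cells. In T cells, several of these genes are known to be higher in antigen-experienced than in naive cells.

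The series measured Treg, Foxp3-expressing CD4 T cells that restrain immune responses, by bulk RNA sequencing. Live CD45+ CD4+ CD69+ cells with EGFP under Foxp3 control were sorted from thrombus, vein wall and spleen of DEREG mice, C57BL/6 animals whose transgene gives diphtheria toxin receptor and EGFP under Foxp3 control, at day 14 after the inferior vena cava had been ligated to induce deep vein thrombosis. Every mouse carried the transgene and had a ligated vein, so the spleen samples are from thrombotic animals too, and no unligated group is used here. Age, and the number of mice behind a library, are not given in the labels, so p-values measure a spread between samples that may in part be technical. Each tissue has 4 libraries. Spleen 3 and 4, and vein wall 3 and 4, were close to identical in their counts and were summed, which left 4 thrombus samples, 3 vein wall samples and 3 spleen samples.

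Total exon reads per library lay between 9719151 and 55386086, and the 10 genes had between 19 reads (Anxa1 in spleen 1) and 60891 reads (S100a10) in a library. The files come in 3 sets, which have their own layouts and gene models: thrombus 1 and spleen 1 form set 1, thrombus 2, vein wall 1 and spleen 2 form set 2, and the remaining samples form set 3. Summed CPM of 10 Treg and T cell markers, none of them at 0 in any sample, was 8366 to 10862 in thrombus, 10220.1 to 11116 in vein wall and 8630.2 to 11073 in spleen. Levels are given as CPM, read counts relative to library size after TMM, edgeR's trimmed-mean scaling. Genes with a p under 0.05 after Benjamini-Hochberg adjustment over all genes were called.

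Levels between genes were compared as CPM per kilobase of exon. S100a10 was the most abundant by its mean over the 10 samples (1465 CPM per kb), followed by S100a11 (1363) and Crip1 (1217), with S100a4 (354), S100a6 (344), Anxa5 (174), Anxa6 (109.8), Anxa2 (87.5), Anxa4 (15.3) and Anxa1 (13.1) below. Neighbours in that order were not all distinct: S100a10 exceeded S100a11 in 6 of 10 samples, S100a11 exceeded Crip1 in 5, and S100a4 exceeded S100a6 in 5. By contrast, S100a6 lay above Anxa5, and Anxa2 above Anxa4, in all 10 samples. In thrombus the means of Crip1 and S100a10 were close, at 1419 ± 875 and 1407 ± 914 CPM per kb (SD, n = 4), and Crip1 was above S100a10 in 2 of the 4 samples. Crip1 had 1626 ± 212 CPM per kb in vein wall, where S100a10 had 1779 ± 306 CPM per kb, and 539 ± 381 CPM per kb in spleen, where S100a11 had 1348 ± 548 CPM per kb (n = 3 each). Exon length differed between the sets, by 4.69 times for Crip1 (2096, 447 and 722 bases in sets 1, 2 and 3) and 2.13 times for Anxa2. It differed by 1.90 times for S100a6, 1.87 for Anxa1, 1.73 for S100a10 and 1.72 for Anxa4. The per-length levels of these genes, and their places in the order, carry that uncertainty.

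**Figure D1:**
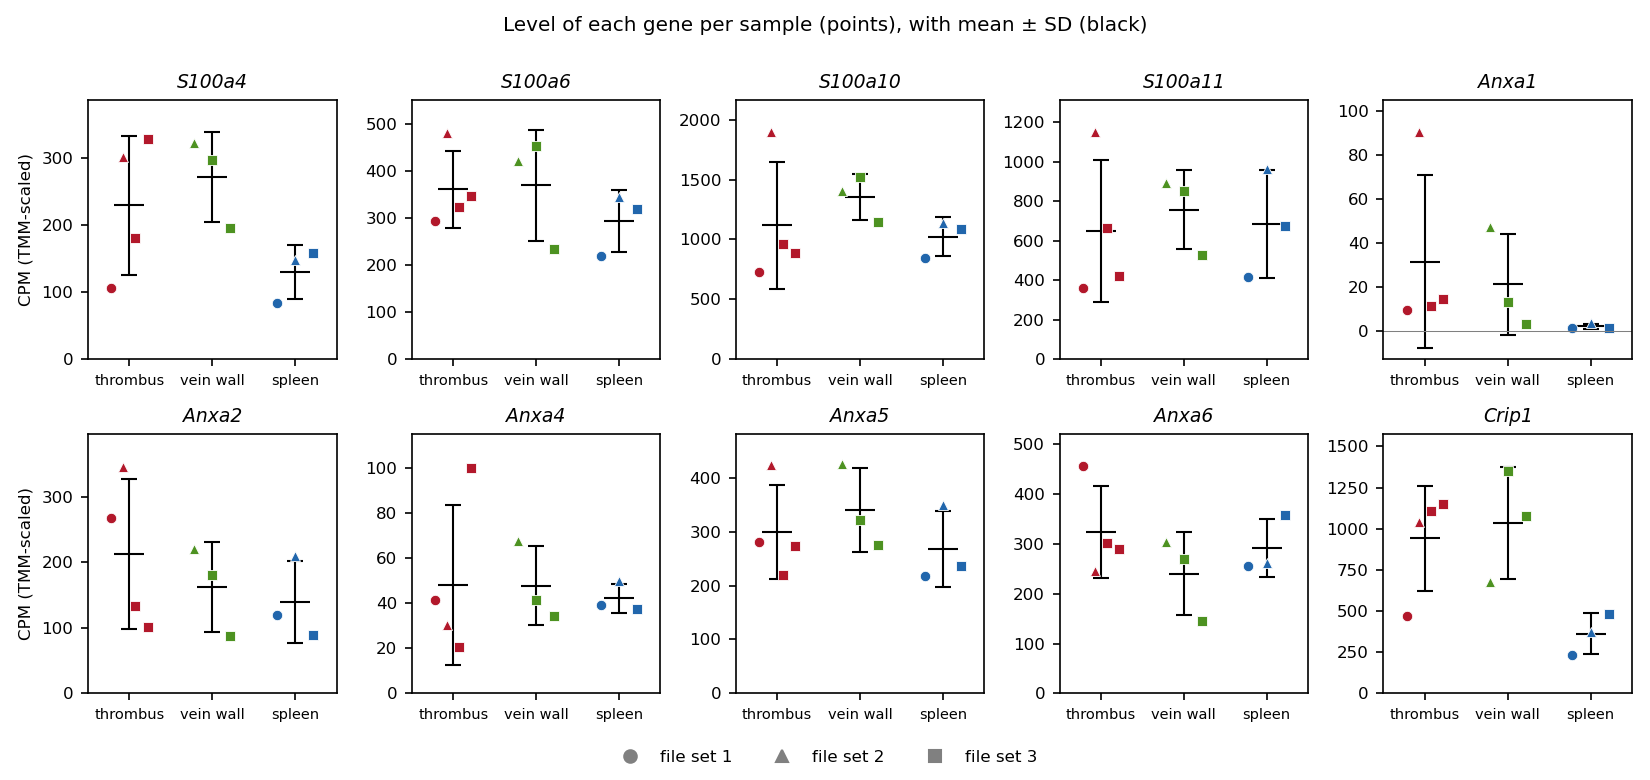
CPM of each of the 10 genes (vertical axis, which runs below 0 for Anxa1 to hold its SD bar) in thrombus, vein wall and spleen samples; each point is 1 sample, its shape gives the set of files, and black bars give the mean ± SD. Anxa1 lies at 1.33 to 3.48 CPM in spleen and above that in every thrombus sample, and Crip1 in thrombus 1 lies under the highest spleen sample, at 469.6 against 482 CPM.

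Thrombus was set against spleen to ask how Treg in the clot differ from those of a lymphoid organ in the same kind of animal. Crip1 and Anxa1 had the largest fold changes of the 10, S100a4 and Anxa2 came next, and the other 6 had log2 fold changes between -0.08 and 0.30. None of the 10 passed with tissue as the single factor (edgeR quasi-likelihood test), where 0.145% of the 11693 genes did, all of them higher in thrombus; 2 of the 10 (Crip1 and Anxa1) and 484 of all genes had an unadjusted p under 0.05, and DESeq2 called 1 of the 10 (Anxa1), where it called 0.881% of all genes. With file set as covariate 2 of the 10 rose, Crip1 and Anxa1, against 0.453% of all genes called. The same 2 genes were called without a filter on low counts, where edgeR called 0.417% of 19197 genes. The median log2 fold change of the 10 was 0.24, with 9 above 0; over all genes it was 0.03, with 52.2% above 0. In bulk samples, a change in the number of cells that express a gene and a change in its RNA per cell cannot be told apart.

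Among the S100 genes, S100a4, which binds non-muscle myosin and is known from motile cells, had 106, 301, 181 and 328 CPM in thrombus 1 to 4, against 83.2, 147 and 158 CPM in spleen 1, 2 and 3-4. Thrombus 1 lay between the spleen samples, so the groups overlapped, and the other 3 thrombus samples were above all of spleen. Its log2 fold change was 0.82 ± 0.40 (SE; edgeR adjusted p = 1.00), and 0.70 ± 0.28 with file set as covariate (adjusted p = 0.576). Of the exon reads of S100a4, 49.9% to 55.1% counted as unique in sets 1 and 3, and 100% in set 2; from unique reads alone its log2 fold change was 0.79 ± 0.58.

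S100a6, calcyclin, had 294, 481, 323 and 348 CPM in thrombus, against 219, 344 and 319 CPM in spleen. S100a10, the partner of annexin A2 that does not need calcium to bind it, had 731, 1902, 963 and 885 CPM in thrombus, against 843, 1142 and 1089.9 CPM in spleen. For both genes thrombus 2 was the highest sample and the remaining values of both tissues ran together. S100a11, a partner of annexin A1, had 361, 1149, 666 and 422 CPM in thrombus, against 416, 962 and 675 CPM in spleen, with full overlap. Only 41.6% to 58.7% of S100a11 exon reads were unique in a library, so its level is uncertain. The log2 fold changes were 0.30 ± 0.33 for S100a6, 0.13 ± 0.34 for S100a10 and -0.08 ± 0.40 for S100a11, each smaller than its SE or close to it.

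Of the annexins, Anxa1 encodes a glucocorticoid-induced protein that acts on formyl peptide receptors and limits leukocyte recruitment. It had 9.41, 90.5, 11.3 and 14.7 CPM in thrombus 1 to 4, against 1.33, 3.48 and 1.44 CPM in spleen 1, 2 and 3-4. Every thrombus sample was above every spleen sample, and thrombus 2 was far above the other thrombus samples. Anxa1 was the only one of the 10 whose groups did not overlap, where 2.49% of all genes tested were higher without overlap. The log2 fold change was 3.92 ± 1.06 (edgeR adjusted p = 0.441), or 3.51 ± 0.71 with file set as covariate (adjusted p = 0.0297). Without thrombus 2 these became 2.50 ± 0.96 (adjusted p = 0.827) and 3.27 ± 0.90 (adjusted p = 0.274). The call with the covariate was made in 4 of the 10 fits that leave out a sample, those without thrombus 3, thrombus 4, vein wall 2 or vein wall 3-4, and was lost in the other 6 (adjusted p up to 0.274).

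Anxa2, the annexin that assembles plasminogen and its activator on the cell surface together with S100a10, had 267, 346, 134 and 101 CPM in thrombus, against 120.2, 209.8 and 88.8 CPM in spleen. The groups overlapped, and within each set of files the thrombus mean was above the spleen sample. Its log2 fold change was 0.60 ± 0.45 (edgeR adjusted p = 1.00), and 0.70 ± 0.30 with the covariate (adjusted p = 0.651). Anxa5, which binds phosphatidylserine and shields it from clotting factors, had 281, 423, 220.0 and 273 CPM in thrombus, against 217, 349 and 237 CPM in spleen. Anxa4 and Anxa6, membrane-binding annexins of the cytoplasm, ranged from 20.7 to 100.2 and from 245 to 457 CPM in thrombus, ranges that took in all spleen samples of Anxa4 (37.3 to 49.7 CPM) and of Anxa6 (257 to 358 CPM). Log2 fold changes of Anxa4, Anxa5 and Anxa6 were 0.19 ± 0.52, 0.16 ± 0.33 and 0.15 ± 0.34.

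Crip1 had 469.6, 1041, 1106 and 1148 CPM in thrombus 1 to 4, against 233, 375 and 482 CPM in spleen 1, 2 and 3-4. Thrombus 1 lay just under spleen 3-4, and the other 3 thrombus samples were well above every spleen sample. The log2 fold change was 1.37 ± 0.38, a 2.59-fold higher level (edgeR adjusted p = 0.441). It was 1.22 ± 0.21 with file set as covariate (adjusted p = 0.00583). In a fit of the 12 libraries with the replicate number as block, which called 0.452% of all genes, it was 1.27 ± 0.19 (adjusted p = 0.00714). That block fit counts the near-identical libraries 3 and 4 of spleen and of vein wall as separate samples. Its p-values may therefore rest on more samples than are independent. Anxa1 was not called in the block fit (3.67 ± 0.84, edgeR adjusted p = 0.0980). Leaving out a sample kept the call with the covariate in 8 of 10 fits; it was lost without spleen 2 (adjusted p = 0.0793) and without spleen 3-4 (adjusted p = 0.0708), at log2 fold changes of 1.22 and 1.14.

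**Figure D2:**
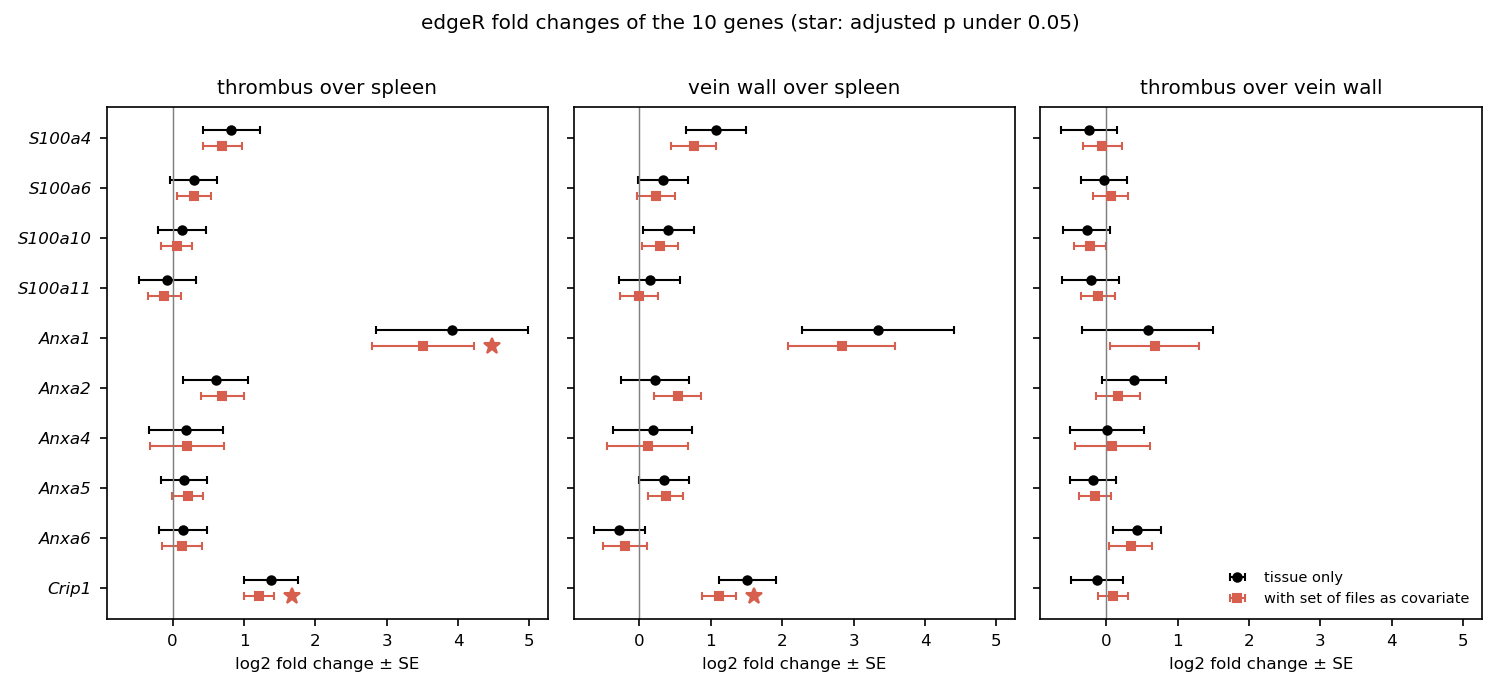
edgeR log2 fold changes (horizontal axis, bars ± SE) of the 10 genes in the 3 comparisons, with tissue only (black) and with file set as covariate (red); a star marks an adjusted p under 0.05. Stars stand at Anxa1 and Crip1 in thrombus over spleen and at Crip1 in vein wall over spleen, all in the covariate fit.

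The vein wall comparison asks the same of Treg in the vessel wall around the clot. Crip1, Anxa1 and S100a4 had the largest fold changes here too, and every vein wall sample of S100a10 lay above every spleen sample. With tissue only, none of the 10 passed (edgeR), with 0.111% of all genes called; 3 of the 10 and 640 of all genes had an unadjusted p under 0.05, and DESeq2 called 2 of the 10 (Crip1 and Anxa1), where it called 1.03% of all genes. With the covariate Crip1 rose, 1 of the 10 against 0.411% of all genes, and without a filter on low counts edgeR called Crip1 and Anxa1, against 0.344% of all genes. The median log2 fold change of the 10 was 0.34, with 9 above 0, against a median of -0.01 over all genes. The spleen samples are the same as in the thrombus comparison, so the fold changes of the tissues against spleen are not independent of each other.

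Crip1 had 677, 1350.4 and 1078 CPM in vein wall 1, 2 and 3-4, all above the 233, 375 and 482 CPM of the spleen samples. Its log2 fold change was 1.51 ± 0.40 (edgeR adjusted p = 0.371), and 1.12 ± 0.24 with file set as covariate (adjusted p = 0.0408). This call was kept in 4 of the 10 fits that leave out a sample (without spleen 1, thrombus 1, thrombus 2 or vein wall 1), and adjusted p reached 0.288 without spleen 2. Anxa1 had 47.1, 13.2 and 3.14 CPM in vein wall, against 1.33, 3.48 and 1.44 CPM in spleen. Vein wall 3-4 lay between the spleen values, and the log2 fold change was 3.34 ± 1.06 (adjusted p = 0.599), or 2.83 ± 0.75 with the covariate (adjusted p = 0.174). Without vein wall 1 it was 1.98 ± 0.98 with tissue only (adjusted p = 0.866) and 2.73 ± 0.92 with the covariate (adjusted p = 0.587).

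S100a4 had 322, 296 and 196 CPM in vein wall, against 83.2, 147 and 158 CPM in spleen, without overlap. Its log2 fold change was 1.07 ± 0.42 (edgeR adjusted p = 0.805), and 0.76 ± 0.31 with the covariate (adjusted p = 0.549). S100a10 also did not overlap, with 1403, 1523 and 1148 CPM in vein wall against 843, 1142 and 1089.9 CPM in spleen, although the lowest vein wall sample was only just above the highest spleen sample. Together with Crip1, 3 of the 10 were higher in vein wall without overlap, where 6.76% of all genes were. The remaining genes overlapped. S100a6 had 421, 454 and 235 CPM in vein wall, S100a11 893, 849.5 and 527, Anxa2 220.0, 181 and 87.0, Anxa4 67.8, 41.5 and 34.2, Anxa5 425, 321 and 274, and Anxa6 305, 270.2 and 146. Vein wall 3-4 was the lowest of its tissue for 9 of the 10 genes, all but Crip1. The log2 fold changes of these 6 genes were between -0.28 (Anxa6) and 0.35 (Anxa5).

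Between thrombus and vein wall no difference in the 10 genes passed the test. None of the 10 was called by edgeR or by DESeq2 and none had an unadjusted p under 0.05, where edgeR called 0.0% and DESeq2 0.0855% of all genes and 340 had an unadjusted p under 0.05 in edgeR. Log2 fold changes lay between -0.28 (S100a10) and 0.58 (Anxa1), with 4 of the 10 above 0 and a median of -0.09, against 0.04 over all genes. Crip1 differed by -0.14 ± 0.36, and Anxa1 by 0.58 ± 0.91. No gene of the 10 had groups without overlap, where 2.35% of all genes were higher and 1.48% lower without it. Without thrombus 2 the log2 fold change of Anxa1 was -0.85 ± 0.91 with tissue only and 0.36 ± 0.89 with file set as covariate.

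Because the sets of files differ in gene models, the tissues were also compared within each set, as differences in log2(CPM + 0.1). Crip1 was higher in thrombus than in spleen by 1.01 in set 1, 1.47 in set 2 and 1.23 in set 3, and higher in vein wall than in spleen by 0.85 in set 2 and 1.32 in set 3. Anxa1 was higher in thrombus by 2.73, 4.66 and 3.08, and in vein wall by 3.72 and 2.09. These were the genes of the 10 with a difference over 1 in every set between thrombus and spleen, as 2.18% of all genes had. S100a4 was higher in thrombus by 0.35, 1.03 and 0.62, and in vein wall by 1.13 and 0.61. In all, 6 of the 10 were higher in thrombus than in spleen in every set (S100a4, S100a6, Anxa1, Anxa2, Anxa5 and Crip1), where 12.6% of all genes were, and 8 were higher in vein wall in both sets that hold vein wall, where 24.6% were. S100a11 was lower in vein wall in both sets, by small differences of -0.11 and -0.01, where 28.9% of all genes were lower. S100a10, S100a11, Anxa4 and Anxa6 changed sign between sets in thrombus. The differences were -0.20, 0.74 and -0.24 for S100a10 and -0.20, 0.26 and -0.35 for S100a11. They were 0.07, -0.72 and 0.29 for Anxa4 and 0.83, -0.09 and -0.27 for Anxa6. Anxa6 also changed sign in vein wall, at 0.22 and -0.85. A set holds 1 or 2 samples of a tissue, so these differences have no test of their own.

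**Figure D3:**
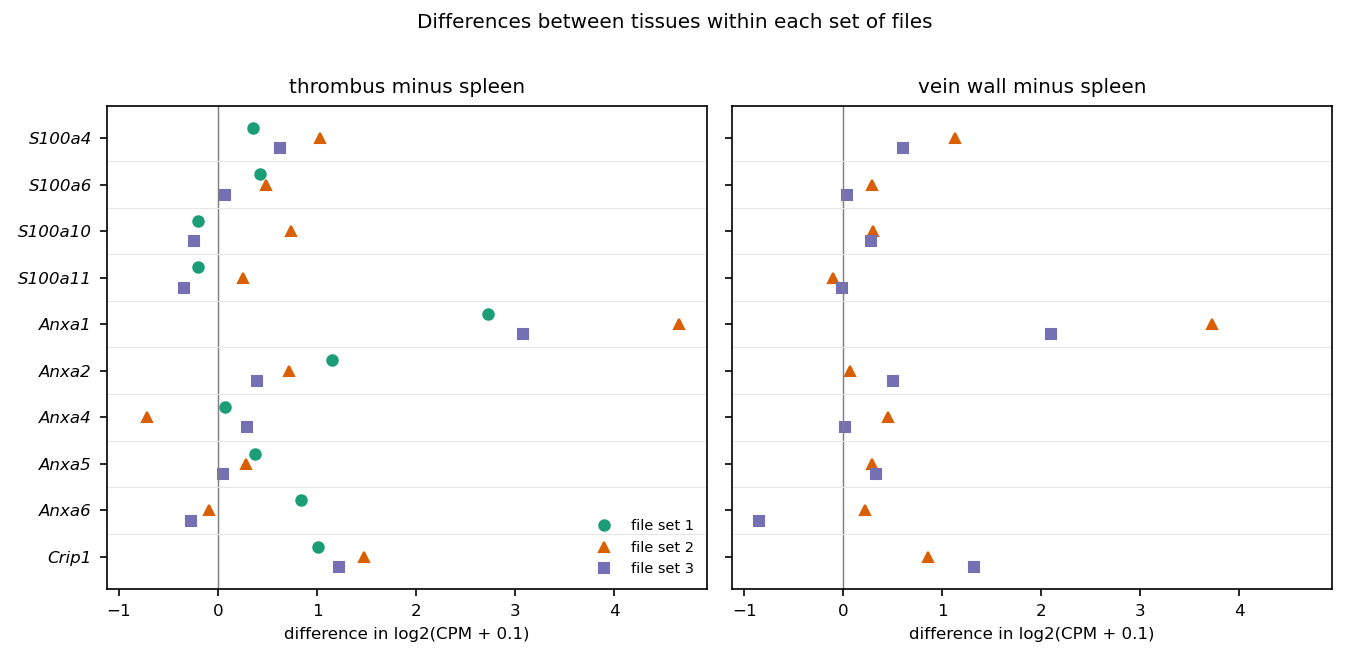
Differences in log2(CPM + 0.1) between tissues within each set of files (horizontal axis), for thrombus minus spleen and vein wall minus spleen; each point is 1 set, and set 1 has no vein wall. All points of Crip1 lie between 0.85 and 1.47 and all of Anxa1 between 2.09 and 4.66, while S100a10, S100a11, Anxa4 and Anxa6 have points on both sides of 0 in thrombus.

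Markers of other cell types were present in some samples. Summed CPM of 9 macrophage and monocyte markers was 61.3, 1748, 49.9 and 60.1 in thrombus 1 to 4, 267, 55.9 and 22.7 in vein wall 1, 2 and 3-4, and 54.1, 71.8 and 202 in spleen 1, 2 and 3-4. Thrombus 2 and vein wall 1, the highest for Anxa1, also had the highest sums of these markers. Lyz2 made up most of both sums, at 1350 and 237 CPM. Csf1r and C1qb had at most 2.99 and 4.31 CPM in vein wall, against at least 6.92 and 14.3 CPM in spleen. Of the 8 tested, 6 had tissue-only log2 fold changes above 0 in thrombus over spleen and 1 in vein wall over spleen. Thrombus 2 and vein wall 1 were the highest as well for summed dendritic cell, B and plasma cell, and CD8 T and NK cell markers. The last summed to 210 CPM in thrombus 2 and 160 CPM in vein wall 1, against at most 96.1 CPM in any other sample. In thrombus 1, 3 and 4, Anxa1 had 9.41 to 14.7 CPM, against 1.33 to 3.48 CPM in spleen. Macrophage marker sums of thrombus 1 and 4 lay within the spleen range, and that of thrombus 3 lay below it. Single markers did not follow the sums. Lyz2 had at least 27.5 CPM in thrombus and as little as 0.0536 CPM in spleen, where its highest value was 108 CPM. Csf1r had at most 5.98 CPM in thrombus, against at least 6.92 CPM in spleen. Similar sums therefore do not show similar levels of each marker. Dendritic cell markers summed to 950, 450.1 and 507 CPM in thrombus 1, 3 and 4, against 228, 85.3 and 557 CPM in spleen 1, 2 and 3-4. Fibroblast markers summed to 15.2, 11.2 and 8.16 CPM there, against at most 0.453 CPM in spleen. Dendritic cell markers summed to 450.1 to 3699 CPM in thrombus and 646 to 3713 CPM in vein wall, against 85.3 to 557 CPM in spleen. These sums rest mainly on the MHC class II genes H2-Aa and H2-Ab1, which averaged 417 and 714 CPM over all samples. The next of the list, Siglech, averaged 8.91 CPM. Zbtb46 went the other way, with 6.41 CPM in thrombus and 2.38 CPM in vein wall, against 7.93 CPM in spleen. B and plasma cell markers summed to 191 to 922, 353 to 1343 and 116 to 299 CPM in the same order of tissues, and fibroblast markers to 8.16 to 18.9, 10.4 to 60.2 and 0 to 0.453 CPM, with 5 of 8 fibroblast markers at 0 reads in spleen. Neutrophil markers, among them S100a8 and S100a9, reached at most 8.50 CPM in any sample, and 6 of these 8 had no read in vein wall. Platelet and megakaryocyte markers summed to 5.65, 50.1, 7.09 and 4.54 CPM in thrombus 1 to 4 and 0 to 6.34 CPM in vein wall, against 4.00, 1.18 and 1.66 CPM in spleen, without overlap between thrombus and spleen and with thrombus 2 highest, as for Anxa1. Gp9 and Treml1, of these 6 markers, had no read in spleen. Endothelial markers summed to 54.9 to 66.9 CPM in thrombus and 44.4 to 47.4 CPM in vein wall, against 24.1 to 52.5 CPM in spleen, again without overlap between thrombus and spleen, and Emcn had no read in any tissue. Only 1 of the 7 endothelial markers passed the filter on low counts. Its tissue-only log2 fold change in thrombus over spleen was 0.61 and was not called. Erythroid, smooth muscle, and CD8 T and NK cell markers overlapped between thrombus and spleen. The part of dendritic cell, B cell, CD8 T and NK cell, fibroblast, macrophage, platelet and endothelial RNA in the differences of Crip1 and Anxa1 was not tested. Without thrombus 2 the log2 fold change of Crip1 against spleen was 1.34 ± 0.39 with tissue only and 1.07 ± 0.21 with the covariate (edgeR adjusted p = 0.0340).

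**Figure D4:**
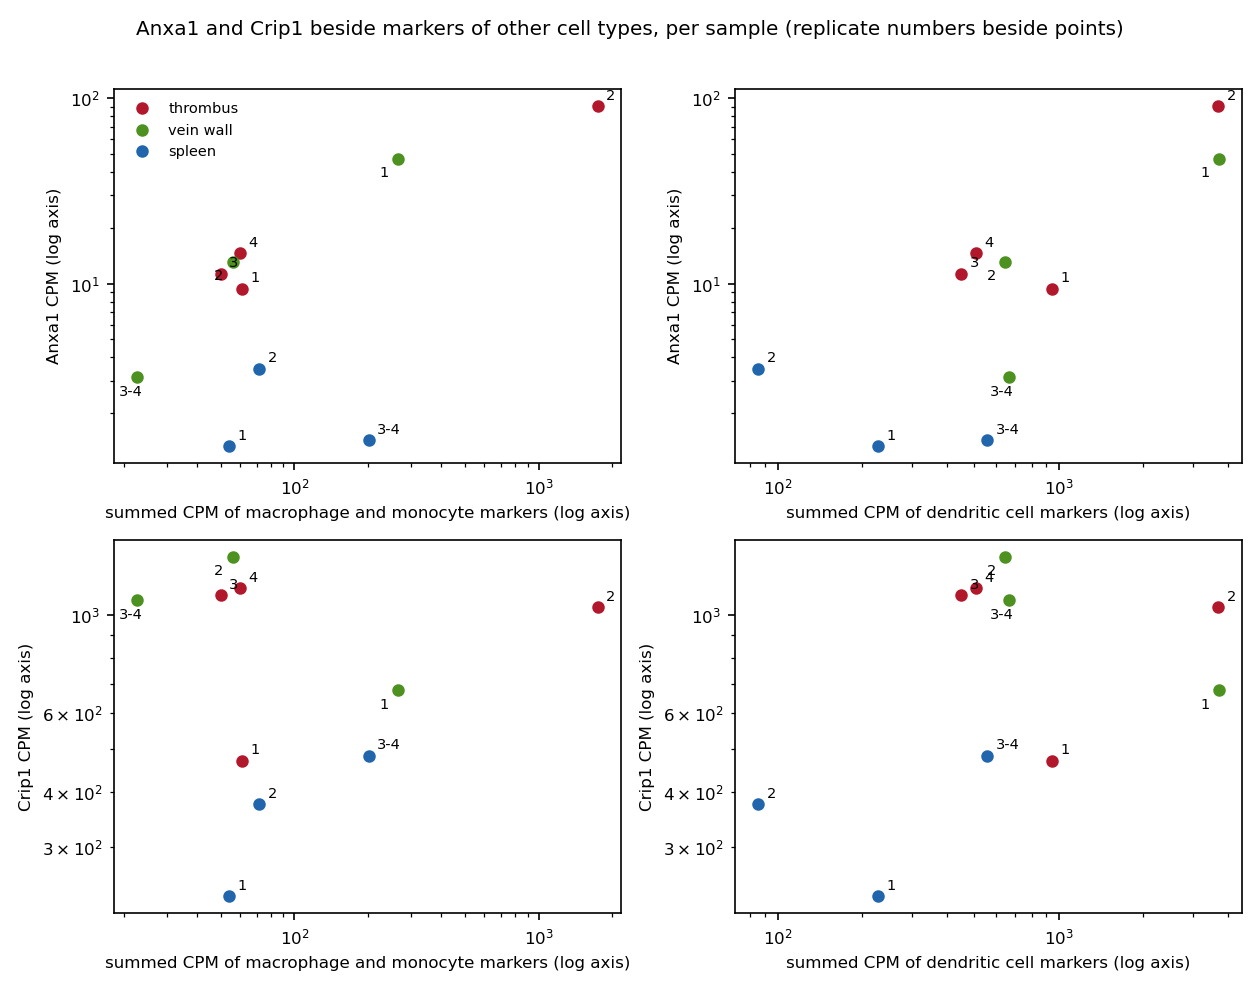
CPM of Anxa1 and Crip1 (vertical, log axes) against summed CPM of macrophage and monocyte or dendritic cell markers (horizontal, log axes); each point is 1 sample with its replicate number, in thrombus, vein wall or spleen. Thrombus 2, at 1748 CPM of macrophage markers, has 90.5 CPM of Anxa1, and its Crip1 (1041 CPM) is close to that of thrombus 3 and 4.

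The 10 genes did not vary as 1 group over the samples. Pearson r of log2(CPM + 0.1) over the 10 samples, which share sets of files and depth, ran from -0.38 (S100a10 and Anxa6) to 0.89 (S100a10 and S100a11) over 45 pairs, with a median of 0.46. After centring on each set of files the range was -0.65 to 0.92 with a median of 0.42, and the highest pair was Anxa1 and Crip1 (0.92), followed by S100a4 and Anxa1 (0.86). For S100a4 and Crip1 r was 0.81 as measured and 0.77 after centring. Centring left the differences between tissues in, so r of genes that differ between tissues in part restates those differences. The partners Anxa2 and S100a10 had 0.41 and 0.43, and Anxa1 and S100a11 had 0.47 and -0.01. As measured, Anxa4 and Anxa6 followed the others least. The mean centred log2 level of the 10 genes was highest in thrombus 2 (0.77) and vein wall 1 (0.61) and lowest in spleen 1 (-0.81).

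**Figure D5:**
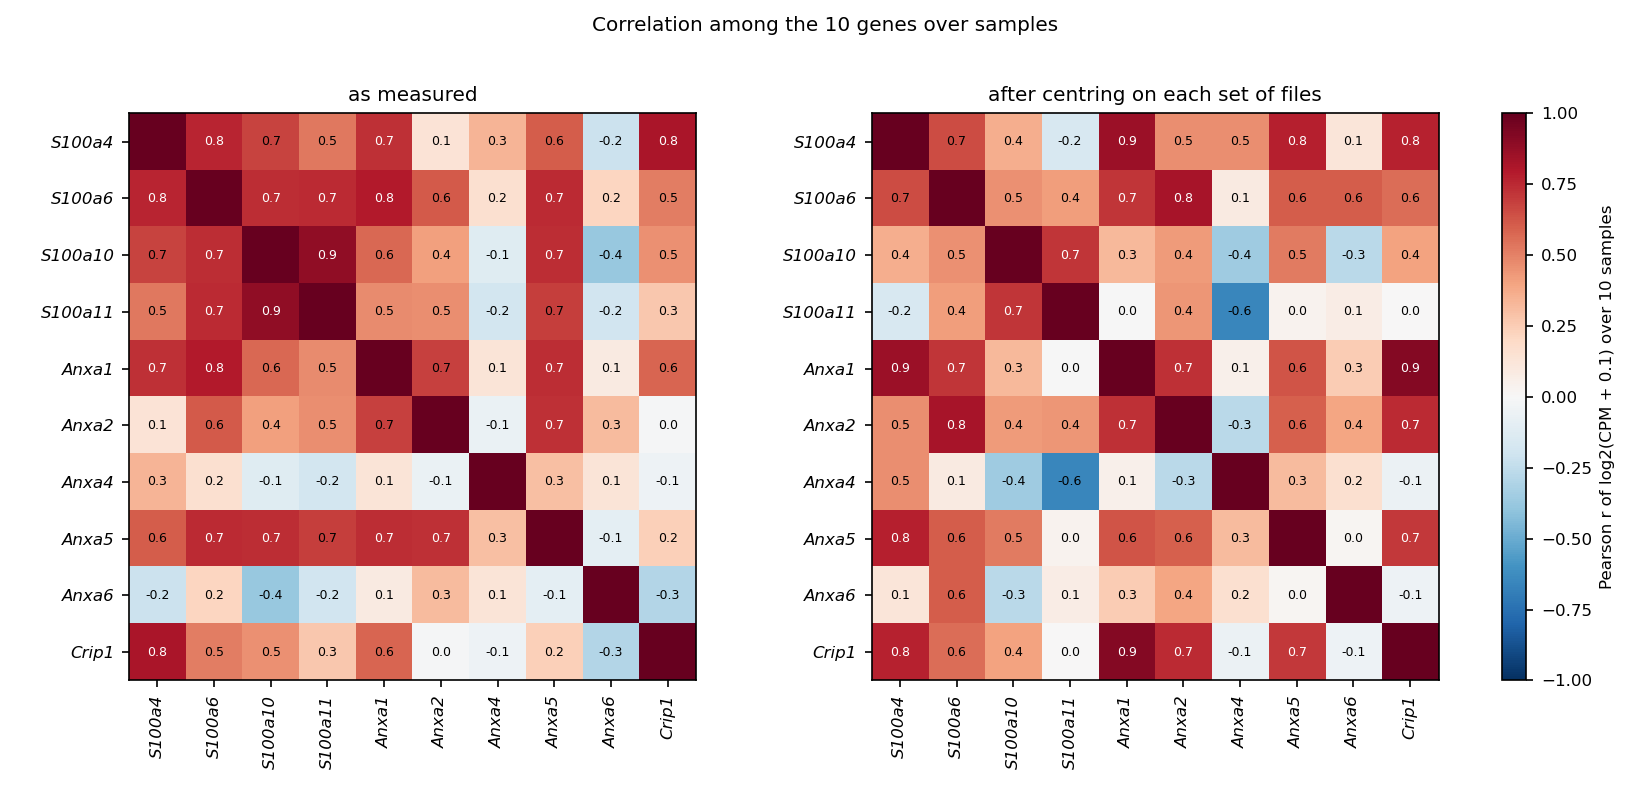
Pearson r between each pair of the 10 genes over 10 samples (colour, from -1 to 1), as measured and after centring on each set of files. S100a10 and S100a11 have the highest r as measured (0.89), and Anxa1 and Crip1 after centring (0.92); as measured, the rows of Anxa4 and Anxa6 are the palest.

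Of 8092 genes with a mean of at least 10 CPM, those most like that mean profile over the 10 samples were Gpr171 (r = 0.98), Actg2 and Stn1 (0.95 each), Lat (0.92) and Ncf4 (0.91). Gpr171, a G protein-coupled receptor gene, averaged 134 ± 73.1 CPM in thrombus, 157 ± 73.3 CPM in vein wall and 66.7 ± 35.3 CPM in spleen (SD, n = 4, 3 and 3). Lat, the adaptor of T cell receptor signalling, averaged 1104 ± 141 CPM in thrombus, 1199 ± 259 CPM in vein wall and 913 ± 135 CPM in spleen.

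None of the related S100, annexin and LIM genes outside the 10 was called by edgeR, with tissue only or with file set as covariate, in any of the 3 comparisons. Of 13 further genes, S100 genes and S100pbp, which encodes a protein that binds an S100 protein, 7 were tested; S100a13, the most abundant, had 199 ± 60.3 CPM in thrombus, 257 ± 36.2 CPM in vein wall and 173 ± 60.6 CPM in spleen, and S100a1 and S100pbp averaged 7.50 and 17.9 CPM over all samples. Of the other annexins 3 were tested. Anxa7 and Anxa11 averaged 75.3 and 18.8 CPM over all samples, and Anxa3 reached 15.5 CPM in 1 thrombus sample, against at most 1.26 CPM in spleen. Csrp1, Crip2 and Csrp2, the most abundant of 5 other genes for LIM proteins of the same type as Crip1, averaged 47.0, 10.4 and 3.64 CPM over all samples.

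Among 13 tested partners and targets of these proteins edgeR called none, with tissue only or with the covariate. The most abundant were the myosin light chain genes Myl12b and Myl12a (1526 and 1086 CPM over all samples) and the calcium-binding Sri (1077 CPM), with log2 fold changes in thrombus over spleen of 0.24, 0.16 and 0.15. Of 4 tested plasminogen genes none passed in these fits. Eno1 and Plgrkt, which encode plasminogen-binding proteins, had log2 fold changes of 0.18 and 0.08 in thrombus. Plaur, the urokinase receptor, had 42.6 ± 55.2 CPM in thrombus and 57.2 ± 50.4 CPM in vein wall, against 0.928 ± 1.11 CPM in spleen; with file set as covariate its log2 fold changes over spleen were 5.19 ± 1.08 and 5.96 ± 1.19 (edgeR adjusted p = 0.0665 and 0.0558).

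All 27 cytoskeletal and effector T cell genes were tested, and 25 of them had log2 fold changes above 0 in thrombus over spleen and 23 in vein wall over spleen, where 52.2% and 49.0% of all genes did; the medians of the list were 0.34 and 0.26. With the covariate 1 of them, Lmna, which encodes nuclear lamins A and C, rose in thrombus, with 38.8 ± 35.9 CPM in thrombus, 12.2 ± 3.70 CPM in vein wall and 1.04 ± 1.71 CPM in spleen (log2 fold change 7.29 ± 1.42, edgeR adjusted p = 0.0326), where 0.453% of all genes were called; with tissue only the log2 fold change of Lmna was 5.29 ± 1.44 and was not called (adjusted p = 0.549). Lmna had 47 spleen reads in all and 0.0388 CPM in its lowest spleen sample, so the size of its fold change rests on few spleen reads. Tmsb4x, Actb and Pfn1, the most abundant of the list, had log2 fold changes of 0.45, 0.14 and -0.35 in thrombus over spleen and 0.80, 0.26 and -0.01 in vein wall over spleen. Cd69, which defined the sort and is on the Treg marker list, rose with the covariate by 1.06 in thrombus and 1.35 in vein wall on the log2 scale (edgeR adjusted p = 0.0246 and 0.00859), and was not called with tissue only (adjusted p = 0.575 and 0.216).

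Promoter windows, 250 bases before to 50 bases after each gene's start, were read for 8 of the 10 genes from RefSeq (GRCm38.p6); none was read for S100a10 and Anxa6. The windows of Crip1, Anxa1 and S100a4 are given because these had the largest fold changes in both comparisons with spleen. Crip1 lies on chromosome 12 (window chr12:113151762-113152061, plus strand), Anxa1 on chromosome 19 (chr19:20390622-20390921, minus strand) and S100a4 on chromosome 3 (chr3:90603520-90603819, plus strand), within reach of S100a6, whose window starts at 90612644 on the same strand. Capitals mark exact matches, on either strand, to the motifs searched. These were TATAAA for the classical start element, GGGCGG for Sp1-type factors, CACCC for Kruppel-like factors, CCAAT for the factor NF-Y, TGANTCA for AP-1 and TGACGTCA for the cAMP response element.
Crip1: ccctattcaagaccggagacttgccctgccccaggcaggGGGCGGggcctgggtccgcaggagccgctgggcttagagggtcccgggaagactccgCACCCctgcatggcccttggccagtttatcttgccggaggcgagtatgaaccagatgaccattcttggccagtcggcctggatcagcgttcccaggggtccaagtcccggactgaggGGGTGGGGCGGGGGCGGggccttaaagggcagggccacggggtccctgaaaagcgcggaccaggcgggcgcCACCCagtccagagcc
Anxa1: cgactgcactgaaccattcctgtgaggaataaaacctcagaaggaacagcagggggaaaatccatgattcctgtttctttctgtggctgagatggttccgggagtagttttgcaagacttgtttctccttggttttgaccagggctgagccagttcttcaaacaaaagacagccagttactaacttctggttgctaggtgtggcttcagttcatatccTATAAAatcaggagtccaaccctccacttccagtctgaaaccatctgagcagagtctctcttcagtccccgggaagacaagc
S100a4: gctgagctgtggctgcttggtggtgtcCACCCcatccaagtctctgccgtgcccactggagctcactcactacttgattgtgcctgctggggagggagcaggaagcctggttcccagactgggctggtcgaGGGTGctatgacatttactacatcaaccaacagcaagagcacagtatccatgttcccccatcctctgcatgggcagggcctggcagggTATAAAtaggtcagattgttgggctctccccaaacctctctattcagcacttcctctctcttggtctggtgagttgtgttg
The Anxa1 and S100a4 windows hold TATAAA, with its first base at -32 and -31 from the start, as 13.6% of 32851 windows hold it somewhere. Crip1 has no TATAAA and has GGGCGG at -211, -32 and -26, a motif found in 35.7% of windows; the matches at -32 and -26 lie end to end behind a CACCC on the other strand at -37, so that they form 1 run of capitals. CACCC occurs in 57.5% of windows, at 3 places in Crip1, 2 in S100a4 and none in Anxa1. None of these 3 windows holds a CCAAT motif, an AP-1 motif or a cAMP response element, which 37.4%, 7.81% and 1.79% of all windows hold. The GC content was 68.3% for Crip1, 47.3% for Anxa1 and 55.3% for S100a4, against a median of 52.7% over all windows. The genes with the largest differences had unlike windows, and a match of letters is a description of this stretch, not of a factor bound there.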

How the data were processed

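The deposited files give, per gene and library, counts of exon reads, unique exon reads and all gene reads; per the labels' protocols, 2 ng of total RNA was amplified by SMART-Seq v4 over 12 cycles and 1 ng of the product was taken into Nextera XT. Strand and molecules are not marked, so genes that overlap on opposite strands are not separated. The submitters' processing notes name GRCm38 as the build; aligner and counter: not given in the sources used here. Per the file headers, total counts by the authors include reads with more than 1 match, 13.6% to 21.8% of exon reads.

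Sets 1 and 3 use Ensembl gene models and set 2 NCBI models. They were joined by Ensembl identifier and then by symbol (20725 genes) or RefSeq synonym (117 genes) with overlap on the same strand, and the join held 92.2% to 96.3% of exon reads. A chi-square statistic per gene over replicate pairs averaged 3.96 for spleen 3 and 4 and 2.55 for vein wall 3 and 4, against 96.8 to 355 for the other 16 pairs, so both pairs were summed.

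The main test, on total exon reads, was edgeR 4.0.16 in R 4.3.3 (quasi-likelihood F test, robust, TMM, default filter on low counts, Benjamini-Hochberg adjustment over all 11693 genes). Tissue was the single factor over all 10 samples; file set as covariate, a replicate block, DESeq2 1.42.0, other scalings, filters and read classes, and leaving out samples were alternatives. The procedure was tested on simulated data. Same-numbered thrombus and spleen libraries deviated together (r = 0.12 to 0.56 in 4 pairs). The number was therefore used as block in an alternative fit. Each of these pairs also shares a set of files, and differently numbered pairs of set 3 had r of 0.14 and 0.22. Within thrombus and spleen, number and set cannot be told apart. Vein wall 1 had r of 0.52 with thrombus 2 and 0.29 with spleen 2, which share its set. With thrombus 1 and spleen 1, which share its number, r was -0.0158 and -0.13. Over pairs from different tissues, median r was 0.18 within a set, -0.14 between sets, 0.10 at the same number and -0.05 at other numbers. A pairing by number apart from the set was not shown. Levels are CPM by TMM library sizes, and log2 values use CPM + 0.1.

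The members and lists were chosen with earlier results of these data known. Named genes are the 10 members, the list genes called in the tissue-only or covariate fit, the 3 most abundant of each related list, and the 5 genes most like the mean profile.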

Additional observations from a re-analysis of the deposited data

Results flagged for a closer look

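Crip1 in thrombus 1 stood apart from the other thrombus samples, at 469.6 CPM against 1041, 1106 and 1148 CPM in thrombus 2, 3 and 4. On the log2 scale its gap to the next sample was 0.890 of the whole range of the group, above Dixon's critical value for 4 samples. Only the thrombus group had enough samples for this rule, so 10 genes were examined, and chance flags about 1 in 20 groups. Spleen 1, from the same set of files, was the lowest spleen sample for Crip1 (233 CPM). Without thrombus 1 the log2 fold change of Crip1 over spleen was 1.60 ± 0.34 with tissue only (edgeR adjusted p = 0.102) and 1.30 ± 0.26 with file set as covariate (adjusted p = 0.0228).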

How the results depend on the processing

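Of 630 values of the 10 genes under alternatives (21 for each gene and comparison), 584 kept their direction and their side of the threshold, 12 became called and 34 changed sign, 24 of these on leaving out a sample. No tissue-only log2 fold change that reversed was over 0.58 in size, and the cause was not tested. In thrombus over vein wall, S100a6 was 0.12 with 12 separate libraries, 0.0622 with file set as covariate and 0.13 with the replicate block; Crip1 was 0.10 with the covariate; and Anxa4 was -0.0199 with the block, -0.0213 with upper-quartile scaling, -0.0262 without a filter, -0.15 from total gene reads and -0.0015 with only those tissues in the fit. S100a11 in vein wall over spleen was -0.0063 with the covariate. On leaving out a sample, log2 fold changes in thrombus over spleen ran from -0.24 to 0.29 for S100a10, -0.49 to 0.28 for S100a11, -0.45 to 0.44 for Anxa4, -0.0502 to 0.42 for Anxa5 and -0.0634 to 0.32 for Anxa6. In vein wall over spleen they ran from -0.13 to 0.51 for S100a11, -0.0449 to 0.67 for Anxa2 and -0.13 to 0.37 for Anxa4. In thrombus over vein wall they ran from -0.28 to 0.13 for S100a6, -0.85 to 1.94 for Anxa1, -0.63 to 0.33 for Anxa4 and -0.38 to 0.0963 for Crip1.

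In thrombus over spleen, 2 of the 10 genes were called with the covariate, 1 with the replicate block (12 libraries), 1 by DESeq2 and 2 without a filter, against 0 with tissue only. Over all genes 17 were called, against 35 with 12 separate libraries, 53 with the covariate, 52 with the replicate block, 103 by DESeq2, 80 without a filter, 9 from total gene reads and 6 to 34 on leaving out a sample. In vein wall over spleen, 1 of the 10 was called with the covariate, 1 with the replicate block (Crip1, log2 fold change 1.45 ± 0.20, edgeR adjusted p = 0.00279, though the numbers did not pair these samples), 2 by DESeq2 and 2 without a filter, against 0. Over all genes 13 were called, against 51 with 12 libraries, 48 with the covariate, 67 with the block, 120 by DESeq2, 66 without a filter, 7 from unique exon reads and 5 to 26 on leaving out a sample. In thrombus over vein wall 0 genes were called, against 10 by DESeq2, 2 without a filter and 0 to 1 on leaving out a sample.

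With the covariate, leaving out a sample gave 0 to 2 called genes of the 10 in thrombus over spleen and 0 to 1 in vein wall over spleen, where unique exon reads gave 0 and DESeq2 gave 2. The block fit treats the near-identical libraries as separate samples. Of the 10 genes, depth limits Anxa1 most, with 195 spleen reads in all.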
